A study of Mus musculus with 14 samples.

Results

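Secreted neuropeptides and the granins that pack them were followed through 11 RNA-seq libraries from a study of *Taf9b* in mouse. The set holds 10 genes out of 23152 RefSeq loci: *Sst*, *Npy*, *Tac1*, *Gal*, *Cck* and *Penk*, which encode peptide precursors, and *Vgf*, *Scg2*, *Chga* and *Chgb*, which encode granins and granin-like proteins. They were looked up by symbol through the RefSeq identifiers of the tables. All 10 were found once, at the same locus, in each of the 6 tables. The set was chosen by measured values of these libraries, the low level of *Sst* at day 6 and the high level of *Vgf* at day 2 in libraries labelled KO, so the values of those pairs are a description here and support nothing.

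The cultured libraries came from C57BL/6 embryonic stem (ES) cells and from embryoid bodies (EBs), floating aggregates of ES cells that were driven towards motor neurons with retinoic acid and the smoothened agonist SAG. EBs were taken at days 2, 4 and 6. Libraries labelled WT came from the JM8 clone and libraries labelled KO from the Taf9b_BG10 clone, in which a *LacZ-Neo* cassette replaced the protein-coding exons of the X-linked *Taf9b*, so each genotype in culture is a single clone. Both clones had been grown on fibroblast feeder layers as ES cells. The tissue libraries came from newborn mice: whole lumbar spinal column of WT and *Taf9b* KO littermates, which holds bone, muscle, ganglia and cord together, and spinal cord labelled WT. The labels of these tissues also carry the names of the cell clones, which conflicts with their description as tissue, and they are taken here as tissue. TAF9B, a histone-fold subunit related to TAF9 of the core promoter factor TFIID, and RNA polymerase II (POL2) were also mapped by ChIP-seq, in EBs of the HBG3 clone, an ES line that carries a green fluorescent reporter under the *Mnx1* promoter, taken at a later day of the same protocol.

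Neuropeptides are made as long precursors that are sorted into dense-core vesicles, cut by prohormone convertases, trimmed by carboxypeptidase E and often amidated before release. Granins are acidic proteins that aggregate in the Golgi and help to build these vesicles, and several are themselves cut into active peptides, as VGF is. In the spinal cord somatostatin, dynorphin, enkephalin, neuropeptide Y and substance P mark sets of dorsal horn interneurons, and substance P and galanin are also made by sensory neurons of the dorsal root ganglia.

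Each condition had 1 library, so no difference below could be set against a spread between replicates, and none was tested. Levels are FPKM, fragment counts scaled for transcript length and sequencing depth, so that levels can be compared between genes. A gene was counted as past 2-fold where it was above 1 FPKM in at least 1 library of a pair and the values differed by more than 2-fold. *Taf9b* itself, the gene that was targeted, stood at 0.537 FPKM in the ES library labelled WT and 3.06 in that labelled KO, at 0.516 and 4.08 on day 2, at 1.96 and 4.27 on day 4, and at 1.37 and 4.01 on day 6. The targeted gene was thus higher in the KO-labelled library in all 4 culture pairs, against the labels, and lower in the spinal column, where it stood at 6.65 and 3.31 FPKM. The tables hold 1 value per gene, so where in *Taf9b* the fragments lay cannot be seen, and the cause was not tested. At day 6 *Mnx1*, a motor neuron factor, stood at 14.3 FPKM in the WT-labelled and 1.62 in the KO-labelled library, and *Nanog*, a pluripotency factor, at 62.5 and 172. Libraries are therefore named by their labels throughout, and no direction is ascribed to the loss of TAF9B. Total depth is unknown, but low values in a culture pair lie on a common step, by which 1 fragment was worth 1.17, 0.917 and 0.695 times as much FPKM in the KO-labelled library as in that labelled WT on days 2, 4 and 6. The day 6 library labelled KO was by this measure the deeper of its pair. No clear step was seen in the tissue tables. The labelled sources held their defining genes: *Pou5f1*, another pluripotency factor, stood at 859 and 880.5 FPKM in the ES libraries, *Ibsp*, a bone protein, at 109 in the WT-labelled column and *Gfap*, an astrocyte filament, at 117 in the cord.

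The start sites are shown first, as a description. The genes with the largest day 6 differences share a word of sequence there, but the day 6 value of *Sst* was used in choosing the set. The RefSeq promoter table (GRCm38.p6) held 8 of the 10 genes, and none for *Vgf* and *Penk*. The 100 bases before each start site matched the mm9 genome, the build of the deposited tables, exactly 1 time. Printed 5′ to 3′ on the strand of the gene, with the full cAMP response element (CRE, the site bound by CREB and its relatives) or its variant in capitals, the promoters of *Sst* (chr16:23890931-23891030, minus strand), *Scg2* (chr1:79436602-79436701, minus strand), *Chgb* (chr2:132607278-132607377, plus strand) and *Chga* (chr12:103793051-103793150, plus strand) read as follows in mm9, and those of *Cck* (chr9:121404813-121404912, minus strand) and *Gal* (chr19:3414545-3414644, minus strand) are given for contrast, with no capitals.
Sst: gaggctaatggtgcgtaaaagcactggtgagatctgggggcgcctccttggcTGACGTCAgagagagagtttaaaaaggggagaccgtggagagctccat
Scg2: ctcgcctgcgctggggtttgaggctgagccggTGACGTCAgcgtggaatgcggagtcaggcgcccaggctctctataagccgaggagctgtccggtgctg
Chgb: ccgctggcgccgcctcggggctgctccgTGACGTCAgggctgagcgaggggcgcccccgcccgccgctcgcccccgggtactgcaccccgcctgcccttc
Chga: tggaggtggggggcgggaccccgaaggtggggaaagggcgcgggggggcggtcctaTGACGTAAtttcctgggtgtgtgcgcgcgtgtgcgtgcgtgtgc
Cck: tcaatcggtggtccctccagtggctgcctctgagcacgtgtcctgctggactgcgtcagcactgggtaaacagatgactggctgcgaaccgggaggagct
Gal: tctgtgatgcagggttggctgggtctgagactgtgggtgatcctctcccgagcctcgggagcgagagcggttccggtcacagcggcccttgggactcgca
The full element TGACGTCA, which reads the same on both strands, began 48 bases before the start site of *Sst*, 68 before that of *Scg2* and 72 before that of *Chgb*. It was found, in windows from 250 bases before to 50 after the start, in 3 of the 8 genes searched and in 588 of 32851 RefSeq promoters (1.79%). The variant TGACGTAA began 44 bases before the start of *Chga* and was present in 0.499% of all promoters. The shorter TGACG, which lies within both longer motifs, was searched on both strands and occurred in 7 of the 8 genes, all but *Npy*, and in 20.8% of all promoters. In *Scg2* the 9 bases TTCAGCACC, the left part of the RE1 site bound by the repressor REST, were read on the opposite strand from 7 bases before the start, and this word was present in 0.371% of promoters. The deposited tables place *Scg2* at chr1:79431244-79436665 and *Chgb* at chr2:132607014-132620808, with starts upstream of the RefSeq ones used here, so by those loci the element of *Scg2* overlaps the first bases of the transcript and that of *Chgb* lies inside it. *Sst*, at chr16:23889667-23890930, starts at the same base in both. A match in letters is a description and not a measured site, and the motifs were picked with the expression values known.

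TAF9B peaks lay over these elements in *Scg2* and *Chgb*. The peak at *Scg2*, chr1:79436538-79436740, covered the start site and the whole full element, with a score of 66.5, above 33.2% of the TAF9B list. At *Chgb* the element lay inside the peak at chr2:132607179-132607314, with a score of 58.6, above 20.9% of the list, and a further TAF9B peak with a score of 91.6 followed at chr2:132607399-132607647, in exonic sequence downstream of the RefSeq start, and held the RE1 word TTCAGCACC. A POL2 peak at chr2:132606934-132607859 covered the same stretch of *Chgb*, and another at chr12:103793012-103793507 covered the start of *Chga* with its variant element. No POL2 peak was listed within 50 kb of *Scg2* or *Sst*. Nearest to *Sst* was a TAF9B peak of 116 bases 8.21 kb upstream, at chr16:23899082-23899197, printed here from the plus strand of mm9 as the nearest listed TAF9B region to the gene with the largest day 6 difference, with a score of 56.1, above 15.6% of the list.
Sst upstream TAF9B peak: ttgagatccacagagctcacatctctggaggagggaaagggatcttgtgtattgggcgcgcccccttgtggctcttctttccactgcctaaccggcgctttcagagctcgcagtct
This stretch held no full CRE, variant, TGACG or RE1 word on either strand. *Penk* had a TAF9B peak 1.43 kb upstream, and *Vgf* a POL2 peak of 730 bases inside the gene, 2.18 kb from its start. The peak near *Penk* had a score of 50.8, above 1.55% of the TAF9B list, so all of these TAF9B peaks but the second of *Chgb* lay below the median score of 83.3. *Cck* and *Gal* had TAF9B peaks at 18.2 kb and at 25.2 and 36.9 kb, and the peak 25.2 kb from *Gal* lay 77 bases from the start of *Mtl5*. *Npy* and *Tac1* had no peak of either kind within 50 kb. In all, 2 of the 10 genes had a TAF9B midpoint within 500 bp of a GENCODE start site, against 30.6% of 11326 genes above 1 FPKM at day 6, and 2 had a POL2 midpoint there, against 53.5%. The 2 were *Scg2* and *Chgb* for TAF9B and *Chga* and *Chgb* for POL2, and all 3 were above 1 FPKM at day 6, which 8 of the 10 genes were. Of all TAF9B peaks, 2.01% held the full CRE within the 200 bases around the midpoint.

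**Figure D1:**
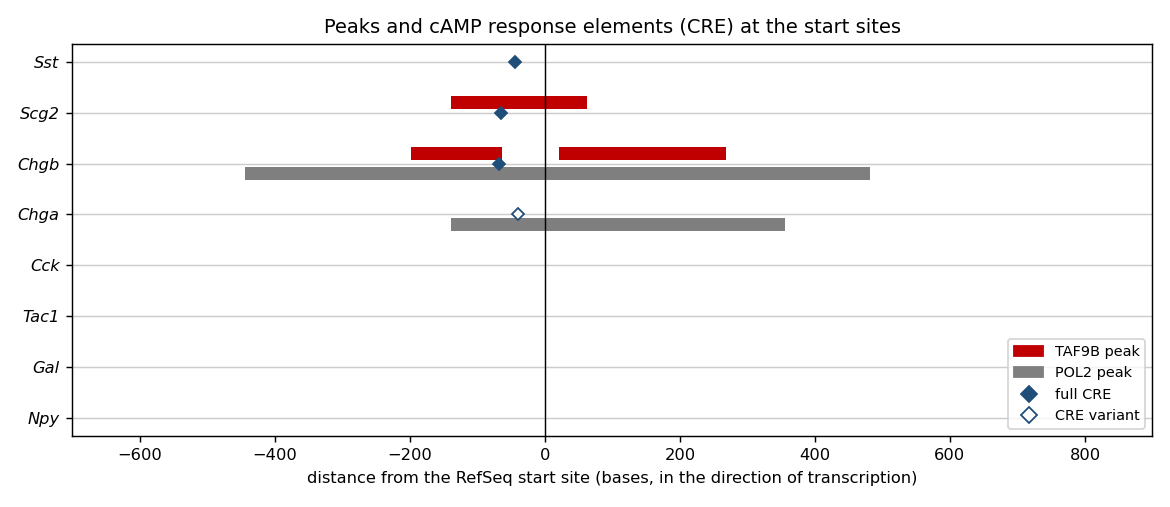
TAF9B peaks (red bars), POL2 peaks (grey bars), full CREs (filled diamonds) and the CRE variant (open diamond) at the 8 genes with a RefSeq promoter, by distance in bases from the RefSeq start site in the direction of transcription. *Scg2* and *Chgb* have an element inside a TAF9B peak, *Sst* and *Chga* have one outside any TAF9B peak, and *Cck*, *Tac1*, *Gal* and *Npy* have neither a peak nor an element in this window.

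*Sst* encodes somatostatin, a peptide that inhibits neurons and hormone release. It was listed at 0 FPKM in both ES libraries and in both day 2 libraries. At day 4 it stood at 2.19 FPKM in the WT-labelled library and 3.02 in that labelled KO, and at day 6 at 129.6 and 1.99. In the spinal column it was at 117 and 90.6 FPKM in the WT and KO libraries, and in the spinal cord at 445. *Sst* was the highest of the 10 genes in the day 6 library labelled WT and the fifth in that labelled KO. From day 4 to day 6 the level was 59.2-fold higher in the WT-labelled course and 1.52-fold lower in the KO-labelled one, in tables that were normalized separately.

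The remaining peptide precursors with low levels in culture were *Npy*, *Tac1* and, in the WT-labelled libraries, *Gal*. *Npy*, the precursor of neuropeptide Y, lay between 0.125 and 0.954 FPKM in the 8 culture libraries, against 51.4 (WT) and 35.3 (KO) in the spinal column and 117 in the cord. *Tac1*, the precursor of substance P and neurokinin A, lay between 0 and 0.608 FPKM in culture, against 25.6 and 24.9 in the column and 43.9 in the cord. Neither gene passed 1 FPKM in any culture library. *Gal*, the precursor of galanin, was at 0.889 and 0.512 FPKM in the WT-labelled and KO-labelled ES libraries, 0.308 and 0.823 on day 2, 0.300 and 1.80 on day 4 and 0.884 and 2.87 on day 6. The WT-labelled culture libraries of *Gal* all stayed below 1 FPKM and the KO-labelled ones passed it from day 4. In tissue *Gal* was at 21.9 (WT) and 11.8 (KO) in the column and 16.1 in the cord, which made it the only member besides *Penk* that was lower in cord than in WT column.

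The other pair of precursors was already present in ES cells. *Penk*, the precursor of the enkephalins, stood at 27.8 and 31.3 FPKM in the ES libraries labelled WT and KO, 17.7 and 23.9 on day 2, 0.553 and 1.65 on day 4 and 3.12 and 9.45 on day 6. *Penk* was the highest member in all 4 ES and day 2 libraries. In tissue it reached 93.9 (WT) and 108 (KO) in the column and 76.7 in the cord. *Cck*, the precursor of cholecystokinin, stood at 3.52 and 2.58 FPKM in ES cells, 0.651 and 1.04 on day 2, 0.106 and 0.352 on day 4, 0.245 and 1.96 on day 6, 26.1 and 32.3 in the column and 81.5 in the cord. In culture both genes were lowest on day 4 in either clone. *Col1a1*, a collagen of fibroblasts and bone, was also lowest on day 4, at 158 and 170 FPKM in ES cells and 1.23 and 9.74 on day 4. Of the 6 fibroblast markers, all 6 were lowest on day 4 in the WT-labelled culture course and 5 in the KO-labelled one, the exception being *Dcn*. All 5 ES cell markers, and *Vgf* and *Chga* of the set, were lowest on day 4 in both courses as well. The part of feeder cells in the *Penk* and *Cck* values was not tested.

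Among the granins, *Vgf* and *Chga* were present from the ES cells on. *Vgf*, which encodes a secreted protein induced by nerve growth factor, stood at 5.76 and 6.01 FPKM in the WT-labelled and KO-labelled ES libraries, 3.39 and 11.5 on day 2, 0.621 and 2.73 on day 4 and 2.82 and 11.2 on day 6. In tissue it was at 21.8 (WT) and 6.46 (KO) in the column and 62.2 in the cord. The KO-labelled library was thus the higher of the pair at each EB day and the lower in the column. *Chga*, which encodes chromogranin A, stood at 3.80 and 3.80 FPKM in ES cells, 3.19 and 4.83 on day 2, 1.41 and 2.31 on day 4, 10.9 and 5.79 on day 6, 42.9 and 16.3 in the column and 102 in the cord.

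*Scg2* and *Chgb* appeared late. *Scg2*, which encodes secretogranin II, the source of secretoneurin, was at most 0.148 FPKM in the ES, day 2 and day 4 libraries, then stood at 3.45 in the day 6 library labelled WT and 0.283 in that labelled KO. *Chgb*, which encodes chromogranin B, was at 0.0501 and 0.0230 FPKM in ES cells, 0.0549 and 0.116 on day 2, 0.424 and 0.516 on day 4 and 8.70 and 0.420 on day 6. Both were above 1 FPKM at day 6 in the WT-labelled library alone. In the column *Scg2* stood at 22.9 (WT) and 11.7 (KO) and *Chgb* at 21.1 and 8.65, and in the cord they stood at 62.2 and 60.8 FPKM.

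**Figure D2:**
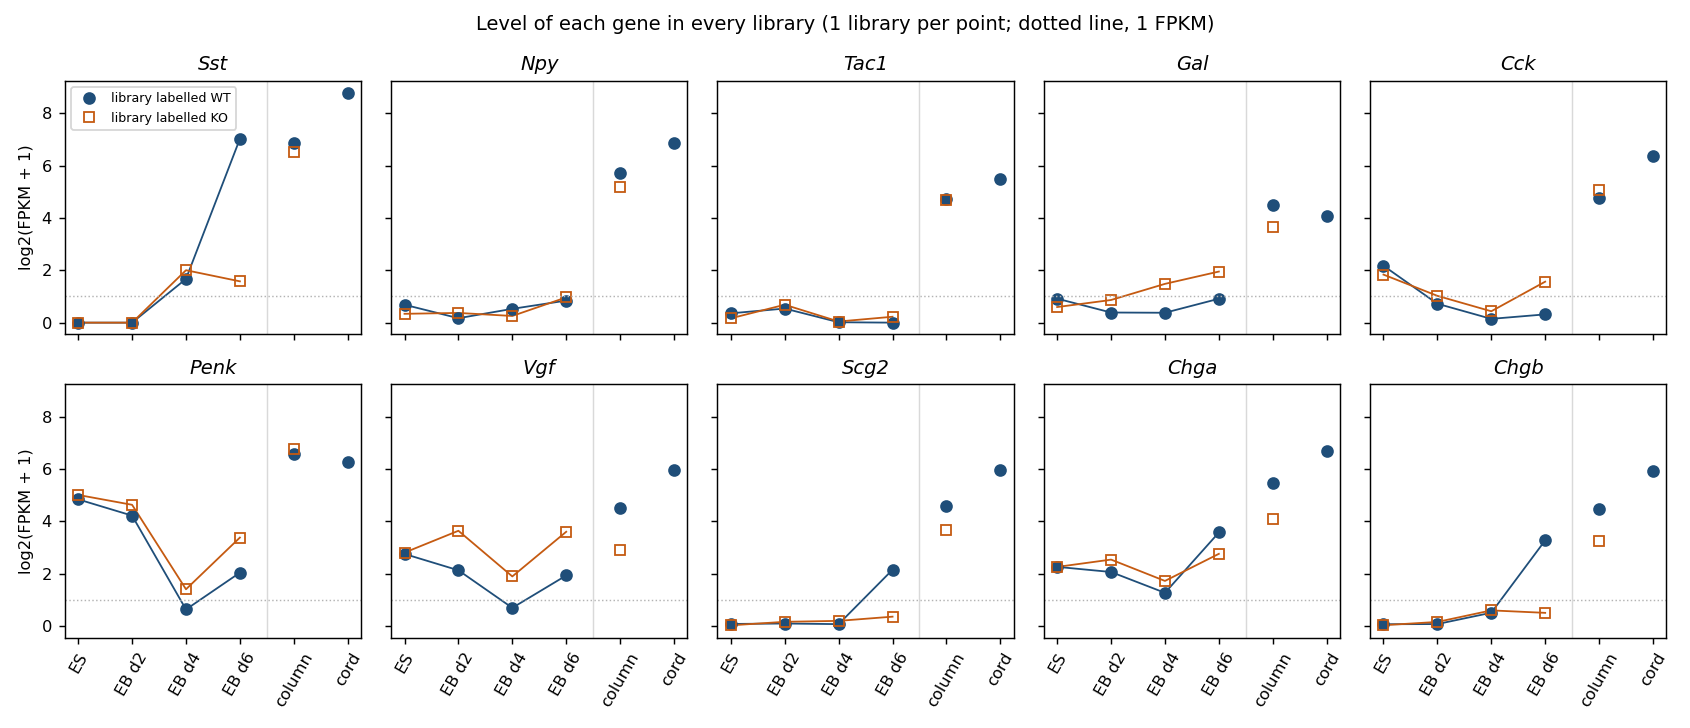
log2(FPKM + 1) of each gene in each library: ES cells, EB days 2, 4 and 6, newborn spinal column and newborn spinal cord (filled circles, libraries labelled WT, open squares, labelled KO, lines joining the culture libraries of 1 clone). *Sst*, *Scg2* and *Chgb* lie far higher at day 6 in the WT-labelled course than in the KO-labelled one, while *Vgf*, *Penk*, *Cck* and *Gal* lie higher in the KO-labelled course at day 6.

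The WT-labelled course asked how the set behaves as ES cells turn into EBs with motor neurons. At day 6, 7 of the 10 genes were above 1 FPKM there or in ES cells, of which *Chgb*, *Scg2*, *Chga* and *Sst* were past 2-fold higher and *Cck*, *Penk* and *Vgf* past 2-fold lower than in ES cells. Across all 12867 loci above 1 FPKM, 23.1% were past 2-fold higher and 15% lower. With 1 FPKM required in both libraries only *Chga* was counted as higher, since *Chgb*, *Scg2* and *Sst* were below 1 FPKM in ES cells, and *Penk* and *Vgf* as lower. *Chgb* was 174-fold and *Scg2* 59.8-fold higher, from ES levels of 0.0501 and 0.0577 FPKM, and *Chga* 2.88-fold higher. *Sst* is listed at 0 in ES cells, so no fold is given. *Penk* was 8.90-fold and *Cck* 14.4-fold lower, and *Vgf* 2.04-fold lower, just past the limit and within it when a pseudocount of 1 FPKM was added. Between days 4 and 6 alone *Scg2* was 65.6-fold, *Chgb* 20.5-fold and *Chga* 7.74-fold higher, with *Penk* and *Vgf* 5.64-fold and 4.55-fold higher as well. With *Sst* these were 6 genes past 2-fold higher and none lower, where 17% of loci were past 2-fold higher and 9.9% lower, but 4 of the 6, all but *Sst* and *Chga*, were below 1 FPKM on day 4 and entered the count through day 6 alone. In the KO-labelled course 4 genes were past 2-fold higher in the same step and none lower, against 12.5% and 11% of loci. These were *Penk* (5.72-fold), *Cck* (5.58-fold), *Vgf* (4.10-fold) and *Chga* (2.51-fold), while *Scg2* and *Chgb* were below 1 FPKM on both days. *Cck* was at 0.352 FPKM on day 4 in the KO-labelled course and entered its count through day 6 alone. The difference between the courses was not tested.

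In newborn spinal cord all 10 genes were past 2-fold higher than in the ES library labelled WT, which is listed a second time in that table with values 1.09 times as high, where 30.4% of 14390 loci were past 2-fold higher and 35.7% lower. With 1 FPKM required in both libraries the count was 4 (*Chga*, *Cck*, *Vgf* and *Penk*), since the other 6 were below 1 FPKM in ES cells. *Chgb* was 1115-fold and *Scg2* 989-fold higher, *Npy* 176-fold and *Tac1* 144-fold. The smallest differences were those of *Penk*, 2.53-fold, and *Vgf*, 9.89-fold, the 2 members with the highest ES levels. The EB and cord comparisons share this ES library. Ordered by level in the cord, *Sst* (445 FPKM) was followed by *Npy* (117), *Chga* (102), *Cck* (81.5), *Penk* (76.7), *Scg2* and *Vgf* (62.2 each), *Chgb* (60.8), *Tac1* (43.9) and *Gal* (16.1), and with a single cord library neighbours in this order cannot be separated. Against the day 6 library labelled WT, *Sst* was 3.43-fold higher in cord, whereas *Cck* was 333-fold and *Npy* 147-fold higher, in tables normalized separately.

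In ES cells the clones hardly differed. Of the 10 genes 4 were above 1 FPKM, *Penk*, *Vgf*, *Chga* and *Cck*, and none of them was past 2-fold, against 0.54% of 12032 loci higher and 0.59% lower. Their log2 ratios, KO-labelled over WT-labelled, ran from −0.45 for *Cck* to 0.18 for *Penk*. On day 2 the same 4 genes were above 1 FPKM and all 4 were higher in the KO-labelled library, *Vgf* by 1.77 on the log2 scale and *Cck*, *Chga* and *Penk* by 0.67, 0.60 and 0.43. *Vgf* was the only member past 2-fold, where 1.19% of 11968 loci were past 2-fold higher and 1.4% lower, and that value was used in choosing the set. The median of the 4 was 0.63, against 0.00 over all loci. It includes the *Vgf* value that chose the set. It also includes *Cck*, at 0.651 FPKM in the WT-labelled and 1.04 in the KO-labelled library, which entered through the latter alone.

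On day 4, when the WT-labelled EBs hold neural progenitors, 5 genes were above 1 FPKM and all were higher in the KO-labelled library. *Gal*, *Vgf* and *Penk* were past 2-fold, by 2.58, 2.14 and 1.58 on the log2 scale, and *Chga* and *Sst* were higher by 0.71 and 0.46. The background was 12.1% of 12563 loci past 2-fold higher and 4.46% lower. All 3 genes past 2-fold were below 1 FPKM in the WT-labelled library and entered the count through the other library alone, so with 1 FPKM required in both libraries the count was 0, and with a pseudocount of 1 FPKM *Penk* came within 2-fold. In the same pair all 7 neural progenitor markers were past 2-fold lower (*Hes5*, a Notch target, from 71.0 to 3.61 FPKM), all 5 ES cell markers past 2-fold higher (*Esrrb*, a pluripotency factor, from 1.53 to 22.5), and all 6 fibroblast markers past 2-fold higher, their summed level being 4.43 and 31.5 FPKM. Their part in the differences of the set was not tested. In bulk RNA fewer cells of a type and less RNA per cell cannot be told apart.

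At day 6 the set split. *Sst* (129.6 against 1.99 FPKM), *Chgb* (8.70 against 0.420) and *Scg2* (3.45 against 0.283) were past 2-fold lower in the KO-labelled library, by 65.1-fold, 20.7-fold and 12.2-fold, and *Chga* (10.9 against 5.79) was 1.89-fold lower, just inside the limit. *Cck*, *Vgf*, *Gal* and *Penk* were past 2-fold higher in the same library, by 8.02-fold, 3.96-fold, 3.25-fold and 3.03-fold. With a pseudocount of 1 FPKM the log2 ratios of *Chgb* and *Scg2* moved from −4.37 to −2.77 and from −3.61 to −1.79, that of *Cck* became 1.25, and with 1 FPKM required in both libraries 1 gene (*Sst*) was lower and 2 (*Vgf*, *Penk*) higher. *Npy* (0.794 and 0.954 FPKM) and *Tac1* (0 and 0.169) stayed below 1 FPKM in both. Of the 8 genes above 1 FPKM 3 were thus lower and 4 higher, where 9.93% of 13006 loci were past 2-fold lower and 10.5% higher. *Sst* chose the set in this pair, so nothing is read from that count. The median log2 ratio of the 8 genes was 0.34, between the 2 groups and close to none of its members, against −0.00 over all loci.

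**Figure D3:**
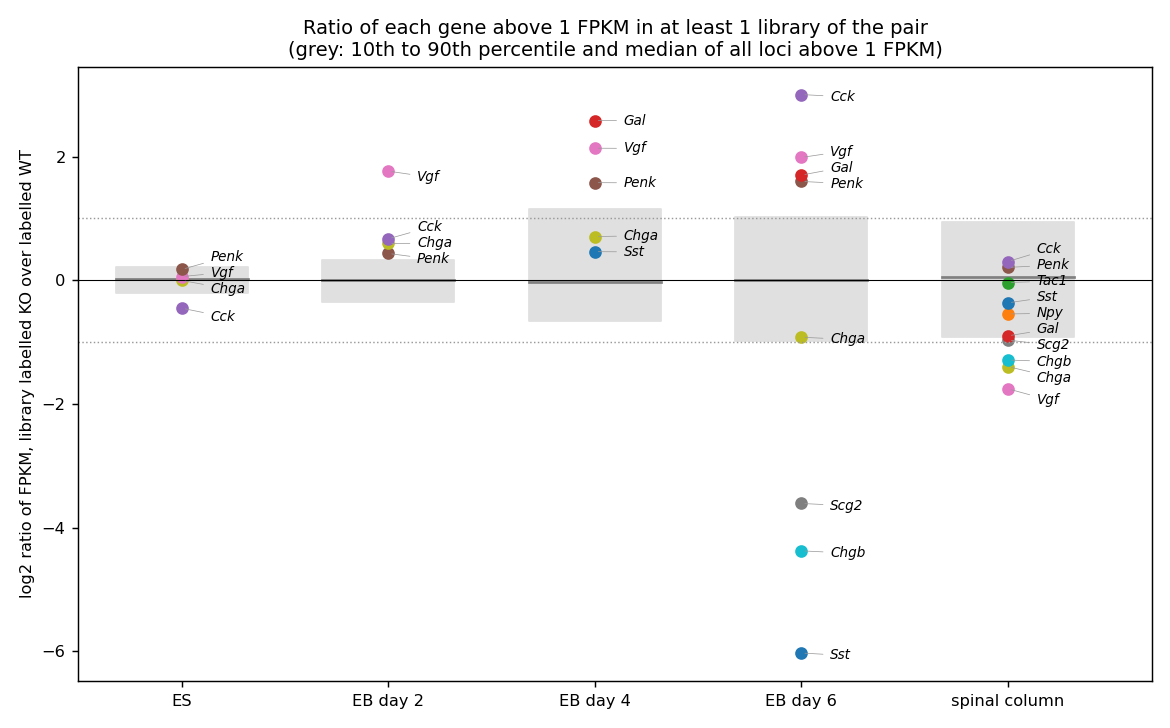
log2 ratio of FPKM, library labelled KO over library labelled WT, for each gene above 1 FPKM in at least 1 library of the pair, with the 10th to 90th percentile and the median of all such loci in grey and the 2-fold limits dotted. At day 6 *Sst*, *Chgb* and *Scg2* lie between −6.02 and −3.61 and *Cck*, *Vgf*, *Gal* and *Penk* at 1.60 or above, and in the spinal column *Vgf*, *Chga* and *Chgb* lie lowest.

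The 3 genes past 2-fold lower at day 6 held the full CRE, and *Chga*, within the limit, held the variant. *Cck* and *Gal*, higher there, held only TGACG. *Vgf* and *Penk*, also higher there, had no promoter entry and were not searched, so whether they hold a full CRE is unknown. The *Sst* value chose the set and the motifs were picked with the values known, so nothing is read from this. Across all genes, of 376 genes above 1 FPKM with a full CRE in the window, 10.4% were past 2-fold lower and 6.38% higher, against 9.01% and 9.81% of the 10134 genes with a promoter entry. In the spinal column 5.59% of the genes with a full CRE were past 2-fold lower, against 7.88%, and 8.51% higher, against 8.69%. The genes with a full CRE were past 2-fold higher in 18.0% at day 6 over ES cells, against 22.3%, and in 21.4% in cord over ES cells, against 29.1%. Genes with a TAF9B peak within 500 bp of a start were past 2-fold lower in 8.99% and higher in 4.32% of 3471 cases at day 6, and those with a POL2 peak there in 7.87% and 2.38% of 6062 cases.

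The machinery of dense-core vesicles went mostly with the lower group. Of 15 genes listed for peptide processing and granules, 12 were above 1 FPKM at day 6, with a median log2 ratio of −2.28. Of these, 9 were past 2-fold lower in the KO-labelled library and none past 2-fold higher. Over all loci 9.93% were past 2-fold lower and 10.5% higher. *Pcsk2*, *Scg3*, *Cadps*, *Ptprn2*, *Syt4* and *Slc18a2* were above 1 FPKM in the WT-labelled library alone and entered the count of 9 through it. *Scg3*, the granin that binds chromogranin A to the vesicle membrane, showed the largest difference, from 23.9 to 0.660 FPKM, and *Pam*, the amidating enzyme, the largest in the other direction, from 8.65 to 14.7. *Cpe*, carboxypeptidase E, was at 74.3 and 82.0 FPKM and *Ptprn*, a vesicle membrane protein, at 7.67 and 8.42. Of the 12 genes above 1 FPKM, *Pam*, *Cpe* and *Ptprn* were the 3 within 2-fold. *Pcsk2*, a prohormone convertase, stood at 2.33 and 0.393 FPKM.

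Markers of cell types differed beside both groups of the set. All 12 general neuron markers were past 2-fold lower in the day 6 library labelled KO, with a median of −3.73 and a summed level of 1103 FPKM (WT) and 141 (KO), none being at 0. *Elavl4*, a neuronal RNA-binding protein, showed the largest difference, from 25.6 to 0.552 FPKM, and *Stmn2*, a neuronal tubulin regulator, the smallest, from 180 to 63.1. All 7 motor neuron markers above 1 FPKM were past 2-fold lower, the summed level of the whole list of 8 being 78.3 and 3.37 FPKM, with *Chat*, the enzyme that makes acetylcholine, at 1.05 and 0. All 7 neural progenitor markers were lower, 6 past 2-fold, with a median of −2.09 and sums of 121 and 21.4 FPKM, and *Hes5* stood at 24.4 and 0.533. Interneuron markers were not uniformly lower: of 5 above 1 FPKM 2 were past 2-fold lower and the other 3 were higher within 2-fold, with a median of 0.31, from *Lhx1* (4.34 and 0.631 FPKM) to *En1* (0.888 and 1.38), both transcription factors. Of 5 sensory and autonomic markers 4 were past 2-fold lower and *Prph*, a neuronal intermediate filament, was past 2-fold higher, from 16.7 to 33.8. The ES cell markers were higher, 4 of 5 past 2-fold, at a sum of 342 and 886 FPKM, and so were 5 of 6 fibroblast markers, at 45.1 and 126 FPKM. Only *Sst* of the set had a ratio below that of every general neuron marker, −6.02 against −5.54 for *Elavl4*, and it was within the range of the motor neuron markers, which reached −7.05 for *Lhx4*. The part of these cell types in the 2 groups of the set was not tested.

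**Figure D4:**
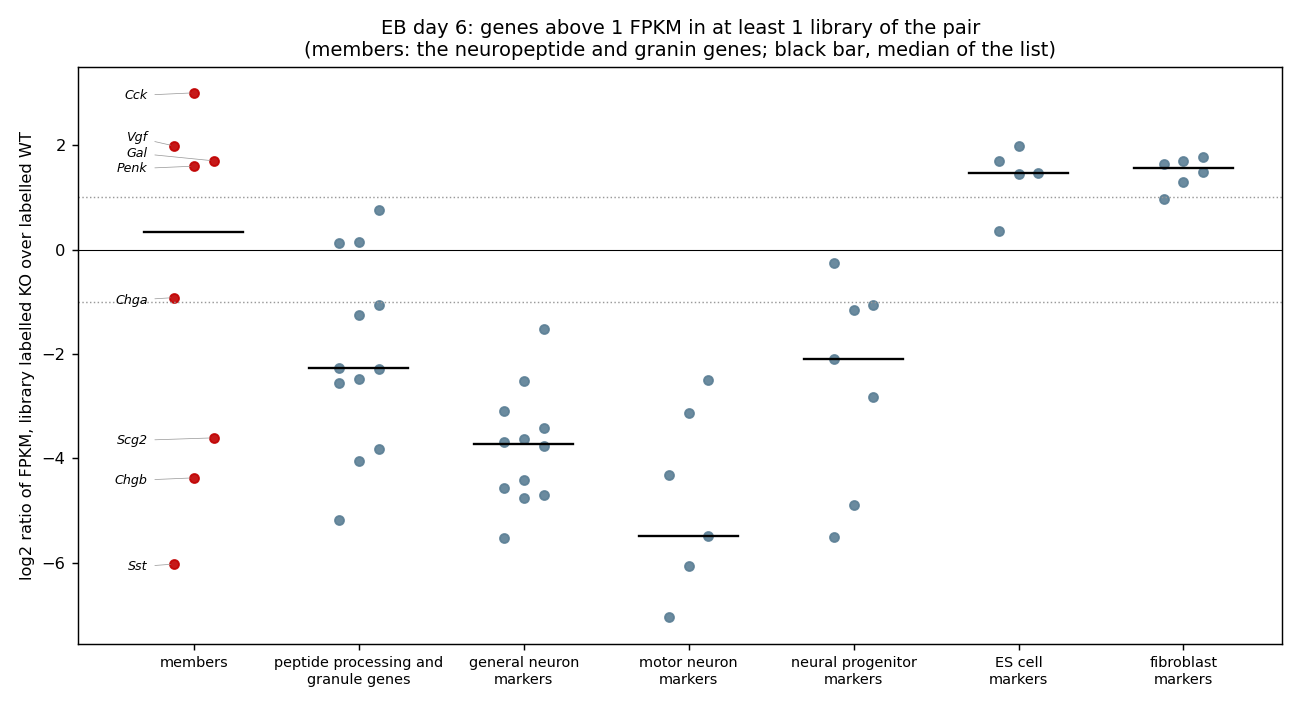
log2 ratio at EB day 6, library labelled KO over labelled WT, for the 10 genes (red, those above 1 FPKM) and for 6 lists of other genes, each point a gene and each bar the median of its list. *Chat*, listed at 0 in the KO-labelled library, counts in its median and is not drawn. *Scg2* and *Chgb* lie among the general neuron markers and *Sst* below them, *Vgf*, *Gal* and *Penk* lie in the range of the ES cell markers, and *Cck* lies above every point.

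In the newborn spinal column all 10 genes were above 1 FPKM in both libraries. *Vgf* (21.8 in WT, 6.46 in KO), *Chga* (42.9 and 16.3) and *Chgb* (21.1 and 8.65) were past 2-fold lower in the KO-labelled library, by 3.37-fold, 2.63-fold and 2.44-fold, and *Scg2* and *Gal* were 1.95-fold and 1.86-fold lower, inside the limit. *Npy* and *Sst* were 1.46-fold and 1.29-fold lower, *Tac1* was within 1.03-fold, and *Penk* and *Cck* were 1.16-fold and 1.23-fold higher. So 3 of 10 genes were past 2-fold lower and none higher, where 8.54% of 14255 loci were past 2-fold lower and 9.05% higher. The 4 granins had the 4 lowest log2 ratios of the set, from −1.75 to −0.97, and the 6 peptide precursors the 6 highest, from −0.90 to 0.30. The median of the set was −0.72, against 0.06 over all loci.

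Neuron markers and glia markers were also lower in that library. All 12 general neuron markers were lower, 8 of them past 2-fold, with a median of −1.09 and summed levels of 1253 and 689 FPKM. *Nefm*, a neurofilament, went from 109.5 to 30.0. All 9 sensory and autonomic markers were lower, 7 past 2-fold, at sums of 299.8 and 134 FPKM, with *Scn10a*, a sodium channel of pain-sensing neurons, from 13.9 to 3.20. All 10 interneuron markers above 1 FPKM were lower as well, 6 past 2-fold. All 7 glia markers above 1 FPKM were lower too, 1 past 2-fold, with a median of −0.59 and sums of 173 and 128 FPKM, and the 3 blood markers were higher, 2 past 2-fold. Epidermal genes ran the other way: all 5 were past 2-fold higher in the KO column, at sums of 10.97 and 834 FPKM, with *Krt14*, a keratin of basal skin cells, from 0.272 to 77.3. Of 5 muscle genes, *Acta1* was listed at 0 in both columns, *Ckm* at 0 in KO and *Myh8* at 0 in WT, values that can be failed estimates. Fibroblast markers were divided, 3 higher and 3 lower, from *Lum* (34.4 in WT and 77.6 in KO) to *Col1a1* (1423 and 753). Cartilage and bone markers were divided too, 2 and 2, from *Ibsp* (109 and 168) to *Col2a1* (156 and 83.6). In the same pair 7 of 15 processing and granule genes were past 2-fold lower, with a median of −0.69. The part of the neuron, glia, blood, skin, fibroblast and cartilage content of the dissections in the differences of the set was not tested.

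**Figure D5:**
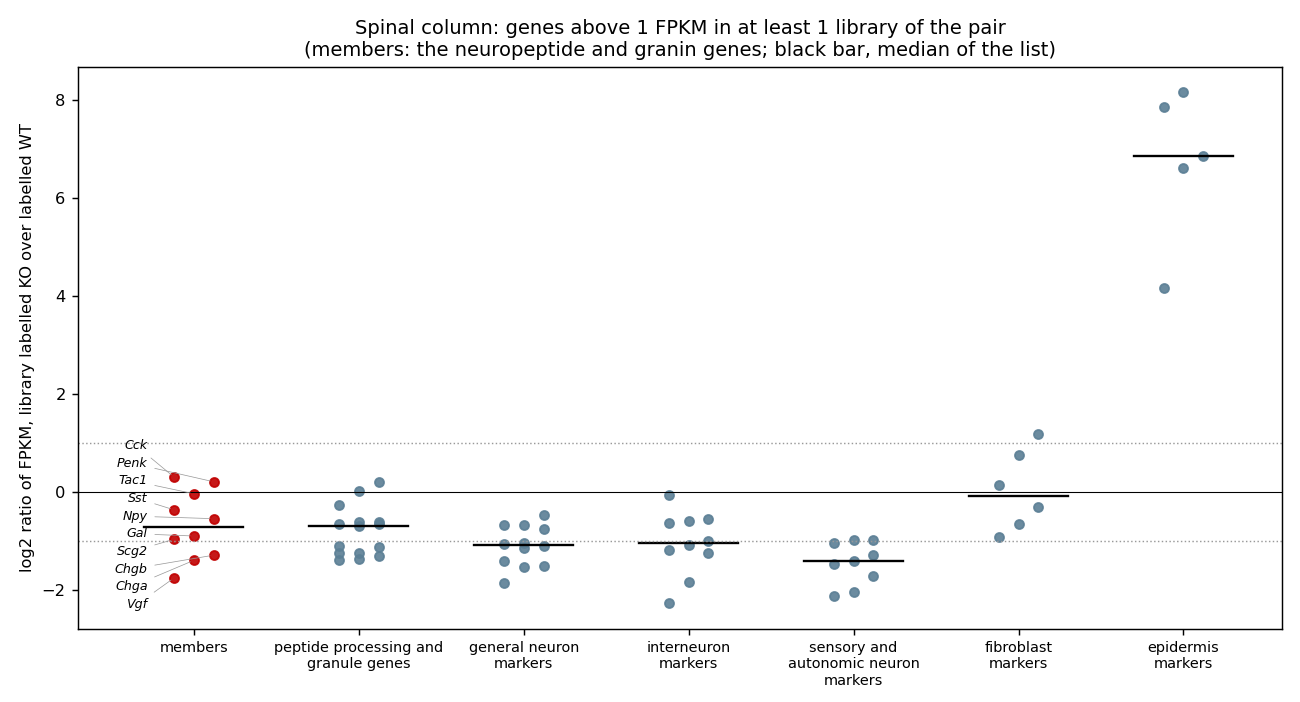
log2 ratio in newborn spinal column, library labelled KO over labelled WT, for the 10 genes (red) and for 6 lists of other genes, each point a gene and each bar the median of its list. The granins lie with the neuron markers around or below −1, *Penk*, *Cck* and *Tac1* lie near 0, and all 5 epidermis markers lie above 4.

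The cord and the WT column held all 10 genes above 1 FPKM, at different levels. Between these tables, which were normalized separately, 7 of the 10 genes were past 2-fold higher in cord and none lower, where 15.9% of 14017 loci were past 2-fold higher and 17.3% lower. *Sst* was 3.82-fold, *Cck* 3.12-fold and *Chgb* 2.88-fold higher in cord, and *Tac1* 1.72-fold, while *Gal* and *Penk* were 1.36-fold and 1.22-fold lower. All 12 general neuron markers were higher in cord, with a median of 1.20. Of the 9 sensory and autonomic markers 8 were past 2-fold lower in cord, with *Dbh*, the enzyme that makes noradrenaline, at 11.8 FPKM in column and 0.0315 in cord, and 5 of the 6 fibroblast markers were past 2-fold lower. *Calca*, the precursor of the calcitonin gene-related peptide of sensory neurons, was at 39.8 FPKM in column and 10.2 in cord. The cell source of *Gal* and *Penk* in the column was not tested.

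Likeness of pattern was measured as Pearson's r of log2(FPKM + 1) over the 11 libraries, among 15740 loci above 1 FPKM in at least 1 of them. It is given as a description, since libraries of a pair share a table and those of a clone share cells. Most like *Sst* were *Dcx* (r = 0.988), the doublecortin of migrating neurons, *Selenov* (0.985), *Podxl2* (0.983), *Kcnmb4* (0.983) and *Npdc1* (0.983). By Spearman's rho none of these 5 was among the 5 genes most like *Sst*, and the same held for the 5 genes named for *Vgf*. *Chgb* was the member most like *Sst* (0.973), followed by *Scg2* (0.932) and *Chga* (0.864), and *Penk* was the least (0.342). Ranked by Spearman's rho, *Chgb* and *Scg2* again came first, but *Npy* (0.707) and *Gal* (0.628) stood above *Chga* (0.623). The day 6 values of *Sst* that chose the set enter each of these measures. Most like *Vgf* was *Ptprn* (0.961), a vesicle protein on the processing list, which stood at 6.90 and 11.9 FPKM in the day 2 pair and at 17.5 and 7.42 in the column pair, then *Plekhd1* (0.954), *Camk1d* (0.948), *Ppp1r36* (0.941) and *Sult4a1* (0.937). *Sst* and *Vgf*, the genes on which the set was built, had an r of 0.484, the lowest of *Vgf* with any member.

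Peptide receptors for the set were scarce in culture. Of 18 receptor genes found, none was above 1 FPKM in the ES pair, 1 in the day 2 pair, 3 in the day 4 pair and 4 in the day 6 pair, against 8 in the cord and ES pair. At day 6 *Sstr2* and *Sstr3*, somatostatin receptors, stood at 4.91 and 1.79 FPKM in the WT-labelled library and 2.70 and 0.227 in that labelled KO, and *Sstr5* at 0.522 and 1.58. *Galr2*, a galanin receptor, was higher in the KO-labelled library at days 2, 4 and 6, at 2.87, 1.70 and 1.18 FPKM against 1.90, 0.348 and 0.708. In the column all 6 receptor genes above 1 FPKM were lower in the KO-labelled library, of which *Tacr1*, the substance P receptor, was past 2-fold, from 1.34 to 0.425.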

How the data were processed

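RNA was measured as poly-A RNA-seq of 11 libraries, 1 per condition. The authors mapped reads against RefSeq genes of mm9 with TopHat and estimated FPKM with Cuffdiff, per the labels and the methods, and deposited 6 tables of 2 libraries each, normalized separately, with their fold changes and p-values, which were not used. Depth per library is unknown, since FPKM does not hold counts, so no interval is given. ChIP-seq peaks were called with MACS on Bowtie alignments, 1 library per antibody, and deposited with a score per peak (10415 TAF9B, 8620 POL2). Versions are not given in the sources used here, and the IgG control has no peak list here.

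RefSeq identifiers were matched to symbols (22766 to 22832 of 23152 loci per table). Ratios are KO-labelled over WT-labelled FPKM without a pseudocount. A locus was counted where it was above 1 FPKM in at least 1 library and past 2-fold. With 1 library per condition there was no test. Start sites came from GENCODE vM1 (mm9), promoters from RefSeq (GRCm38.p6), matched to mm9 by sequence. Values were computed with Python 3.11.15, numpy 2.4.6 and pandas 2.3.3, and the counting was tested on simulated data. The members, lists and motifs were chosen with earlier results of these data known, and the fibroblast and epidermis lists after their values were seen. All 10 members are named, and of other lists the genes with the largest difference in each direction, plus genes named for their role after their values were seen. Alternatives changed the pseudocount, centring, filter on low values, fold limit and peak limits.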

Additional observations from a re-analysis of the deposited data

Results flagged for a closer look

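*Vgf* was past 2-fold in opposite directions in the culture and tissue pairs. Its log2 ratio, library labelled KO over library labelled WT, was 1.77 at EB day 2, 2.14 at day 4 and 1.99 at day 6, and −1.75 in the newborn spinal column. At the 2-fold limit it was the only member of which this held. At 1.5-fold it held for *Gal* and *Chga* as well, both higher on day 4 in the KO-labelled library and lower in the column. The day 2 value of *Vgf* was used in choosing the set. On day 4 *Vgf* stood at 0.621 FPKM in the WT-labelled library and 2.73 in that labelled KO, and entered through the latter alone. With 1 library per condition the difference between culture and tissue was not tested. In the ES pair, where *Taf9b* was also higher in the KO-labelled library (0.537 and 3.06 FPKM), *Vgf* stood at 5.76 and 6.01.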

How the results depend on the processing

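A fit with a replicate block could not be made, since each condition had 1 library and the labels carry no replicate numbers, and an analysis with the 5 stages and tissues as pairs was not run. With 1 library per condition no library could be left out. Of 88 alternative counts of members past 2-fold or with a peak, 75 stayed within 1.5 times the reported count. The 75 include reported counts of 0 that stayed at 0, which a stricter filter could not move. No member past 2-fold changed direction with a pseudocount or with centring, but neither setting could change it. A pseudocount common to both values keeps the sign of a ratio, and the shifts by centring were too small. Centring on the median of all loci moved no log2 ratio by more than 0.057, while a pseudocount of 1 FPKM brought all 31 member ratios nearer 0. It lowered the median log2 ratio of the 5 members above 1 FPKM on day 4 from 1.58 to 0.77, the ratios of *Gal*, *Vgf* and *Penk* on day 4 to 1.10, 1.20 and 0.77, and those of *Scg2*, *Chgb*, *Cck* and *Gal* at day 6 to −1.79, −2.77, 1.25 and 1.04, so that *Penk* on day 4 came within 2-fold, as did *Vgf* at day 6 against ES cells, and centring brought *Scg2* past 2-fold lower in the column. Without a filter on low values the count lower in ES cells was 4, those higher on days 2 and 4 were 4 and 6, and that lower on day 4 was 1. With 1 FPKM required in both libraries, 0 members were past 2-fold higher on day 4, 2 higher (*Vgf*, *Penk*) and 1 lower (*Sst*) at day 6, 4 higher in cord than in ES cells and 1 higher (*Chga*) at day 6 than in ES cells. At 1.5-fold 3 were higher on day 2 and 5 lower in the column. Of peaks above the median score of their list, 0 TAF9B midpoints and 1 POL2 midpoint (*Chgb*) lay within 500 bp of a member's GENCODE start, the midpoint of the stronger TAF9B peak of *Chgb* (score 91.57) being 509 bp from it. These moves follow from the construction of each setting, and no other cause was tested. By Spearman's rho, 0 of the 5 genes most alike to *Sst* or to *Vgf* were those named by Pearson's r. Leaving out loci with a failed estimate, and counting peaks by any base, both chosen after seeing the data, changed no count. Depth limits the lowest values: below 1 FPKM, ratios rest on few fragments.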

Other observations

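Other peptide precursors took courses of their own. *Trh*, the precursor of thyrotropin-releasing hormone, was the highest precursor gene of the 27 others listed in ES cells, at 123 FPKM in the WT-labelled library and 103 in that labelled KO, and stood at 229 and 132 on day 2, 13.1 and 7.21 on day 4 and 6.09 and 10.6 on day 6, and 0.371 in the cord. *Calca* was at 29.8 and 32.1 FPKM on day 2 and at 3.68 and 6.07 on day 4. At day 6 *Cartpt*, the precursor of the CART peptide, stood at 1.91 FPKM in the WT-labelled library and 0.159 in that labelled KO, and *Calcb* at 0 and 1.83. In the cord *Pnoc*, the precursor of nociceptin, was at 25.2 FPKM, *Grp*, gastrin-releasing peptide, at 17.3 and *Pdyn*, the dynorphin precursor, at 15.3, all of them below *Sst*.

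*Rest*, the repressor that keeps many neuronal genes silent outside neurons, stood at 35.8 and 34.8 FPKM in the ES libraries labelled WT and KO, 13.2 and 13.4 on day 2, 4.58 and 10.7 on day 4 and 2.63 and 6.54 at day 6. It was the only 1 of 9 genes of the REST complex past 2-fold at day 6. *Creb1*, a factor that binds the CRE, was at 6.48 and 5.76 FPKM at day 6, and of 12 genes of the CREB group 3 were past 2-fold higher there and none lower, with *Junb* at 7.99 and 23.5 FPKM. In the spinal column *Nr4a1*, an early gene of active cells, stood at 42.3 FPKM in WT and 13.7 in KO, the only gene of that group past 2-fold there.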
